A study of Mus musculus with 42 samples.

Results

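Acute phase proteins are the plasma proteins whose production changes when an animal meets infection or tissue injury, and 10 of their genes were followed here: the serum amyloid A genes Saa1, Saa2 and Saa3, the orosomucoid genes Orm1 and Orm2, Lcn2 (lipocalin 2), Hp (haptoglobin), Hpx (hemopexin), Crp (C-reactive protein) and Fgb (the fibrinogen beta chain). They were chosen by name among the non-control probes of the arrays. The 10 genes had 11 probes of the 41174 probes and 27597 gene names on the array. Of the 10 genes, 9 were found under their own name, and Hpx was found through its accession under the older symbol Hpxn. RNA came from liver, skeletal muscle (quadriceps) and visceral fat of female mice on a C57BL/6 background, either wild-type (Wt) or carrying 1 functional Akt1 allele (Akt1+/-). Akt1 encodes a kinase of the insulin and insulin-like growth factor pathway, and the knockout is constitutive, so that all 3 tissues carried it. Mice of 8 weeks and 35 weeks were compared. The age of the older mice is that of the labels, and the methods of the study name a higher one. Each tissue had 3 Wt and 3 Akt1+/- arrays at 8 weeks and 4 and 4 at 35 weeks, which gave 42 arrays in 12 groups. No inflammatory stimulus is described in the labels or methods. The study describes its array samples as taken from these mice and their littermates, but the labels do not name the animal behind each array, and the p-values measure the spread between these samples.

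The acute phase response is driven by cytokines such as interleukin-6, interleukin-1 and tumour necrosis factor, which act on hepatocytes through the transcription factors STAT3, NF-kB and C/EBP. Serum amyloid A proteins are apolipoproteins of high density lipoprotein. In the mouse, Saa1 and Saa2 are made mainly by the liver and Saa3 mainly outside it, in adipocytes and macrophages among other cells. Orosomucoids bind drugs and lipids in plasma, lipocalin 2 withholds iron from bacteria by binding their siderophores, haptoglobin binds free haemoglobin and hemopexin binds free haem. Fibrinogen forms the clot. C-reactive protein, the leading acute phase protein of humans, changes little in inflamed mice.

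The sequences upstream of the start sites of 6 of the genes are shown because Saa1, Saa2, Saa3 and Lcn2 stood high together on the same liver arrays, Orm2 belongs to the pair whose genotype difference in fat is described below, and Fgb was the gene called for age in liver. Each holds the 250 bases before the start site in RefSeq (GRCm38.p6), written in the direction of the gene. Capitals mark matches to 3 motifs searched on both strands, TTGCNNAA for C/EBP, TTCNNNGAA for STAT and GGGANNTTC for NF-kB. The windows were Saa1 at chr7:46742981-46743230 on the minus strand, Saa2 at chr7:46751583-46751832 on the plus strand, Saa3 at chr7:46715677-46715926 on the minus strand, Orm2 at chr4:63362199-63362448 on the plus strand, Lcn2 at chr2:32387740-32387989 on the minus strand and Fgb at chr3:83049864-83050113 on the minus strand.
Saa1: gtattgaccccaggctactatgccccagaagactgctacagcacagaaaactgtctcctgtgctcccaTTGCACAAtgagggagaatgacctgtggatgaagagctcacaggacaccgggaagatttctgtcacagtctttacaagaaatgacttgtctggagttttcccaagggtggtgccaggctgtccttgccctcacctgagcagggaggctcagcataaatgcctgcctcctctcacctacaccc
Saa2: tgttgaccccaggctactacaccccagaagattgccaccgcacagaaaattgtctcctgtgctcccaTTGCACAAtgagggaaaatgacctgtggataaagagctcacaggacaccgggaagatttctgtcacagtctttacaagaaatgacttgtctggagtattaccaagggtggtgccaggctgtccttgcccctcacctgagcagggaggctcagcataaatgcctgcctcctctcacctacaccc
Saa3: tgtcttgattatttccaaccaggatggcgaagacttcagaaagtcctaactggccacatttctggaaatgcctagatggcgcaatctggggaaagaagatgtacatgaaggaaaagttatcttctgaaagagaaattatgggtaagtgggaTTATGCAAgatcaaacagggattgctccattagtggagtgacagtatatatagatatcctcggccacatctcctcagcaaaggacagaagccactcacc
Orm2: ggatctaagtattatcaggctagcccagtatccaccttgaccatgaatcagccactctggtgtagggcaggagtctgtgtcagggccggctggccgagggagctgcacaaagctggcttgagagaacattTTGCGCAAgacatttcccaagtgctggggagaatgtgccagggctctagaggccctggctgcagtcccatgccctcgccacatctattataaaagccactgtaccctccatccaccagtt
Lcn2: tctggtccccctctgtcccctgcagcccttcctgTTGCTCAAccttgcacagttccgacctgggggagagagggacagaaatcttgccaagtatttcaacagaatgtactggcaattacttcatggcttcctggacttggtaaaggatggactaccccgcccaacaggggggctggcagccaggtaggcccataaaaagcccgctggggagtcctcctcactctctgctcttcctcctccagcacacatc
Fgb: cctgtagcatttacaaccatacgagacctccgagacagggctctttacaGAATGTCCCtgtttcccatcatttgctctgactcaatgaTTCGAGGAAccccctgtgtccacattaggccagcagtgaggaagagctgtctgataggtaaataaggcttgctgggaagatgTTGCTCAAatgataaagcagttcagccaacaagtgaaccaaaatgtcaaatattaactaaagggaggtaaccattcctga

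The C/EBP letters were present in 7 of the 8 genes with a window, Hpx being the other gene with a match and Crp the gene without one, against 9.56% of 32851 mouse promoter windows of the same length. The STAT letters, present in 7.02% of all windows, and the NF-kB letters, present in 3.23%, were each present in 1 of the 8, Fgb. No window was at hand for Orm1 and Hp. The Saa1 and Saa2 windows were 94.8% identical (238 of 251 aligned positions), and both carried the C/EBP letters in the same surroundings. Saa1 and Saa3 were 50.2% identical. These matches describe the letters and do not show binding.

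Each probe level is given as log2 of the scanner's processed intensity minus the 75th percentile of its array, so that a level of 0 equals the 75th percentile and a difference of 1 is a doubling. Between arrays, the 75th percentile lay at an intensity of 274 to 795, and 56.5% to 68.6% of probes were well above background. Markers matched the tissue labels, with 8 of 8 hepatocyte markers above background on all liver arrays, 10 of 10 skeletal muscle markers on all muscle arrays and 9 of 9 adipocyte markers on all fat arrays. Akt1 itself was lower in Akt1+/- than in Wt by 0.67 (SE 0.076) on the log2 scale in liver, by 0.58 (SE 0.11) in muscle and by 0.55 (SE 0.071) in fat, with limma adjusted p of 0.00251, 0.0747 and 0.00649. In each tissue every Akt1+/- array read below every Wt array of its age, although it is not known here whether the Akt1 probe lies in the deleted part. The ages were scanned in different sessions and cannot be told apart from them. In liver, and in all tissues at 35 weeks, each slide held 1 genotype, so slide and genotype cannot be told apart there. In fat at 35 weeks the genotypes were also scanned in different sessions, unlike those of liver and muscle. The first and second Wt fat arrays of 8 weeks had a session apart from the other fat arrays of that age. Saa1 and Saa2 are near-identical and the Saa3 probe also lists the Saa1 transcript, so signal shared among the 3 genes is uncertain. For Saa1 the brighter of its 2 probes was used.

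The first comparison was between tissues, with each probe set against itself. All 10 genes were higher in liver than in muscle and all 10 were higher in liver than in fat, where 40.5% and 44.2% of the 19862 genes tested were higher in liver (limma, adjusted p below 0.05). The median difference of the 10 genes was 7.79 on the log2 scale for liver minus muscle and 4.86 for liver minus fat, against medians of -0.06 and 0.04 over all genes. Between fat and muscle the genes parted. Saa3, Orm1, Orm2 and Hp were higher in fat and Saa2, Lcn2 and Fgb were lower in fat, where 43.7% of all genes were higher and 43.9% lower, and the median of the 10 genes was 0.28 against -0.01 over all genes. Crp passed the same test but was at background in both tissues, so it is given no direction. In whole tissue, fewer cells of a type and less RNA per cell cannot be told apart.

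**Figure D1:**
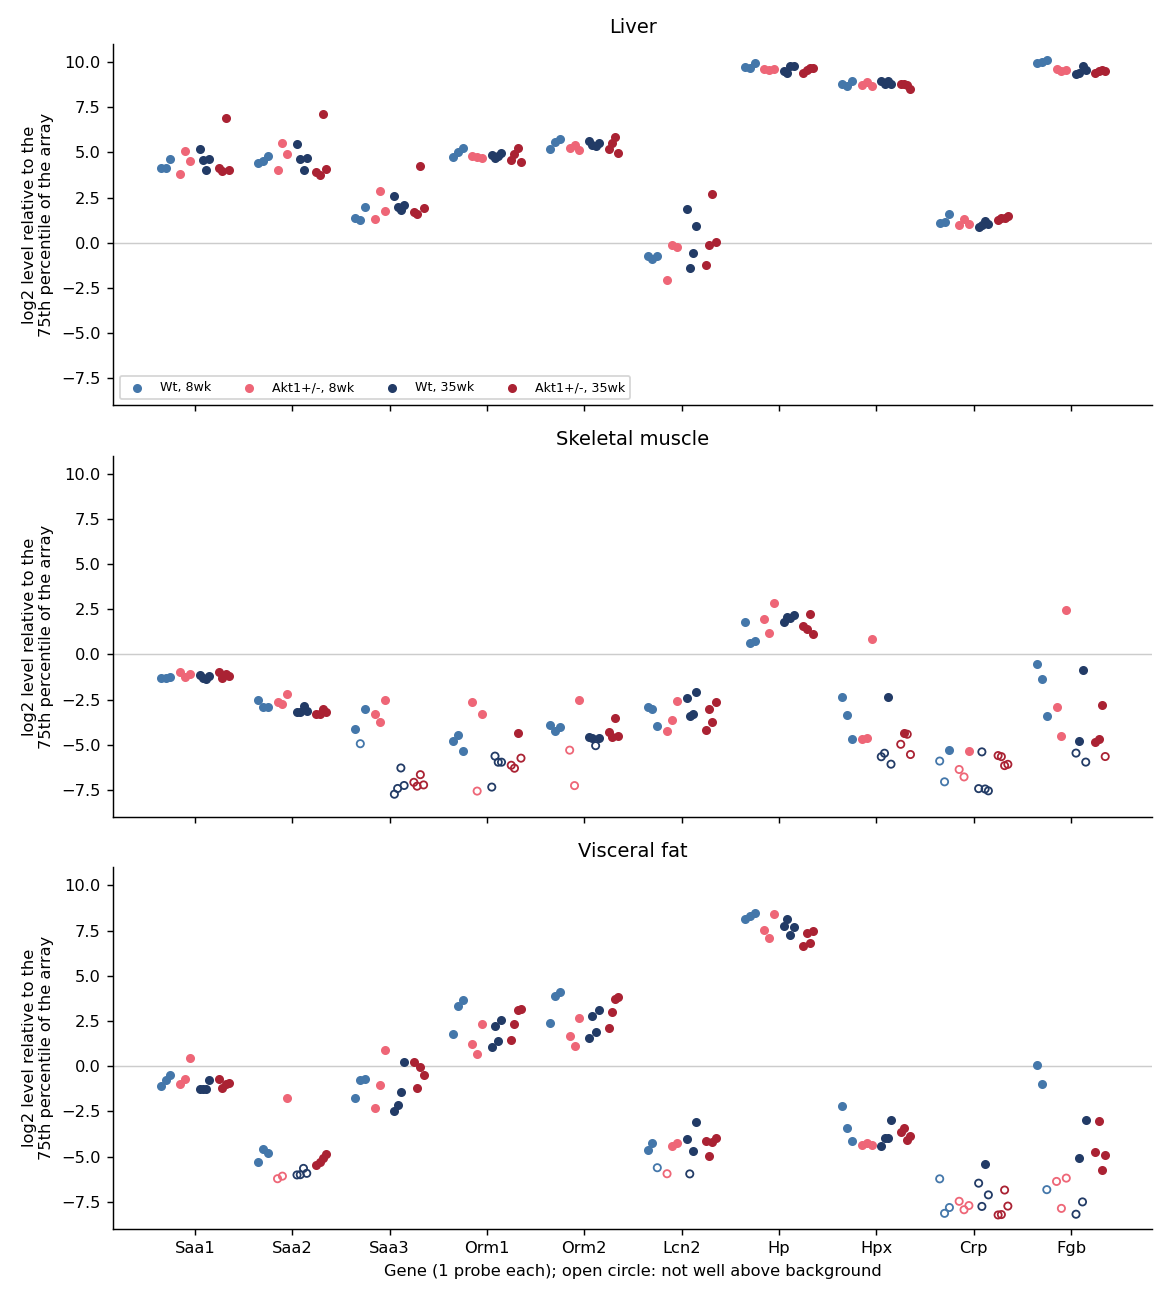
Level of each gene on each of the 42 arrays (y axis, log2 relative to the 75th percentile of the array) by gene (x axis) in the panels for liver, skeletal muscle and visceral fat. Points are single arrays coloured by genotype and age, and open circles were not well above background. Hp, Orm1, Orm2 and Saa3 were nearer to liver in fat than in muscle, and Hpx and Fgb lay far below liver in both.

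Among the scavengers of haemoglobin and haem, Hp was spread over all 3 tissues and Hpx was not. Hp read 9.39, 9.64 and 9.95 as the lowest, median and highest of the 14 liver arrays, 0.61, 1.79 and 2.82 in muscle, and 6.66, 7.60 and 8.48 in fat. Liver exceeded fat by 1.94 (SE 0.15, adjusted p = 8.41e-14) and fat exceeded muscle by 6.04 (SE 0.15, adjusted p = 1.31e-27). No tissue overlapped another. The summed level of 9 adipocyte markers was 7.33 to 8.55 in muscle and 10.70 to 11.27 in fat, and the part of adipocyte RNA in the Hp of muscle was not tested. Hpx read 8.51, 8.78 and 8.95 in liver, -4.44, -3.98 and -2.18 in fat, and -6.07, -4.64 and 0.86 in muscle. It was well above background on all 14 arrays of liver and of fat, but on 8 of 14 of muscle. Its differences with muscle take dim readings as levels and are no measured folds. Liver exceeded muscle by 12.78 (SE 0.41, adjusted p = 6.96e-25) and fat by 12.58 (SE 0.41, adjusted p = 1.60e-24), while fat and muscle overlapped and differed by 0.20 (SE 0.41, adjusted p = 0.649). The last difference became 0.65 (adjusted p = 0.0328) without the third Akt1+/- muscle array of 8 weeks, which read highest.

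The orosomucoids followed the pattern of Hp. Orm1 read 4.46, 4.80 and 5.25 in liver, 0.66, 2.27 and 3.67 in fat, and -7.56, -5.68 and -2.61 in muscle, where 6 of 14 arrays were well above background. Because 1 group of muscle had no array above background for Orm1, only bounds could be given. Orm1 was at least 978-fold higher in liver than in muscle (adjusted p = 5.34e-24) and at least 151-fold higher in fat than in muscle (adjusted p = 5.27e-20). The bounds between tissues, here and below, raised dim readings only in groups with no array above background. Dim readings in other groups were kept, so these bounds are not strict lower limits. Orm2 was 9.92 (SE 0.30) higher in liver than in muscle and 2.71 (SE 0.30) higher in liver than in fat on the log2 scale, and 7.20 (SE 0.30) higher in fat than in muscle. No array of fat fell within the range of muscle for either gene, or within the range of liver.

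The serum amyloid A genes differed from one another outside the liver. Saa3, known from fat and macrophages, read 1.29, 1.86 and 4.25 in liver, -2.50, -0.90 and 0.91 in fat, and -7.73, -6.47 and -2.53 in muscle. It was 2.93 (SE 0.32, adjusted p = 3.36e-10) higher in liver than in fat and at least 10.9-fold higher in fat than in muscle (adjusted p = 1.05e-14), with 5 of 14 muscle arrays well above background. Every liver array lay above every fat array, and the lowest fat array lay just above the highest muscle array, which was of 8 weeks. Saa2 read 3.75, 4.58 and 7.15 in liver, -6.23, -5.40 and -1.78 in fat, and -3.32, -2.96 and -2.18 in muscle. It was at least 903-fold higher in liver than in fat (adjusted p = 4.61e-24) and at least 4.65-fold lower in fat than in muscle (adjusted p = 1.32e-07), the opposite order from Saa3. On 1 fat array Saa2 stood above all muscle arrays, and it is described below with fat.

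Saa1 was 5.73 (SE 0.21) higher in liver than in muscle and 5.36 (SE 0.21) higher in liver than in fat. For fat against muscle its probes parted. The brighter probe gave 0.37 (SE 0.21, adjusted p = 0.0994), and the dimmer gave -2.15 (SE 0.34, adjusted p = 5.75e-07), near the difference of Saa2. No direction between fat and muscle is therefore given for Saa1.

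Lcn2 and Fgb were lowest in fat. Lcn2 was 2.98 (SE 0.37) higher in liver than in muscle and 1.38 (SE 0.37, adjusted p = 0.000818) lower in fat than in muscle. Crp was above background on all 14 liver arrays but on 2 muscle arrays and 1 fat array, and was at least 114-fold higher in liver than in muscle and at least 149-fold higher in liver than in fat. Between fat and muscle no fold is given for Crp, which was at background in both. Fgb was at least 20828-fold higher in liver than in fat (adjusted p = 6.30e-20) and 12.69 (SE 0.68) higher in liver than in muscle on the log2 scale. Fgb was also at least 3.15-fold lower in fat than in muscle (adjusted p = 0.00894). It was well above background on 11 of 14 muscle arrays and 8 of 14 fat arrays. In muscle its highest readings fell on arrays high in albumin, described below, and the part of hepatocyte RNA in this difference was not tested. The bounds for Crp and Fgb kept the dim readings of groups with some arrays above background, so they are not strict lower limits. With another background correction (normexp, with quantile normalization) the fat and muscle differences of Lcn2 and Fgb had adjusted p of 0.0849 and 0.0523.

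**Figure D2:**
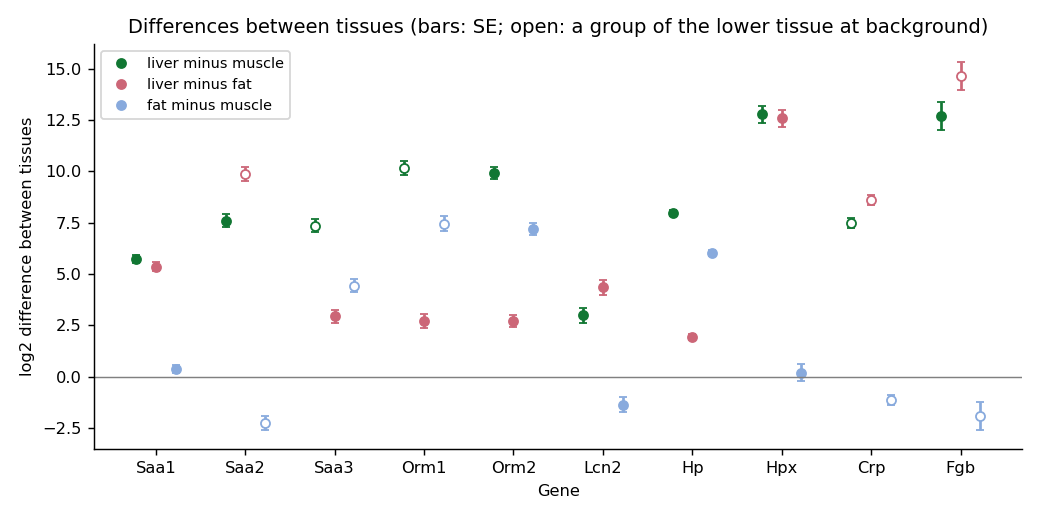
Differences between tissues (y axis, log2) for each gene (x axis), averaged over the 4 groups of genotype and age, with bars for the SE. Open points include a group at background in the lower tissue, and there only the bounds in the text hold. Filled points can still include single arrays not well above background, as for Hpx in muscle. Every difference of liver against another tissue lay above 0, while fat minus muscle lay on either side of it, with Hp at 6.04 and Lcn2 at -1.38.

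Of the related genes, 29 of 29 tested positive acute phase proteins outside the 10 were also higher in liver than in muscle. In liver against fat, 25 of them were higher and 2 lower. Over all genes, 40.5% were higher in liver than in muscle, and 44.2% were higher and 42% lower in liver than in fat. All 15 negative acute phase proteins, such as albumin and transthyretin, were higher in liver than in either tissue. Fat and muscle differed in 26 of the 29 other positive acute phase proteins, with 23 higher and 3 lower in fat (median 1.59, against -0.01 over all genes). Over all genes 87.6% differed, 43.7% higher and 43.9% lower in fat.

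In liver, the comparison of Akt1+/- with Wt showed no called difference in any of the 10 genes, where 6.28% of the 17561 genes tested in liver were called (limma). The unadjusted p was under 0.05 for 1 of the 10, Fgb, and the median difference was -0.02, against 0.02 over all genes. For age, 1 of the 10 was called, Fgb, where 35.1% of all genes were called. The median difference between ages was 0.01, against 0.02 over all genes. A change of the genotype difference with age was called in 0 of the 10 by limma, where 0.558% of all genes were called (2 of the 10 had an unadjusted p under 0.05, Crp and Fgb). Scaling to the median of each array in place of the 75th percentile moved the median of all liver genes by -0.13 for genotype and by -0.20 for age, so small differences in liver hold only relative to the scale used.

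Fgb, a subunit of fibrinogen, read 9.92, 9.99 and 10.13 in Wt liver and 9.61, 9.50 and 9.56 in Akt1+/- liver at 8 weeks. At 35 weeks it read 9.34, 9.41, 9.78 and 9.56 in Wt and 9.38, 9.50, 9.53 and 9.53 in Akt1+/-. The Wt arrays of 8 weeks were higher than all other liver arrays, and the remaining 3 groups overlapped. Those Wt arrays shared 1 slide and had the lowest 75th percentiles in liver, 274 to 300 against 317 to 431 in the other groups. Levels are relative to this percentile, and its part in the difference of Fgb was not tested. Fgb was lower by 0.28 (SE 0.076, adjusted p = 0.0132) at 35 weeks over both genotypes, by 0.49 (SE 0.11, adjusted p = 0.00751) within Wt and by 0.07 (SE 0.11, adjusted p = 0.711) within Akt1+/-. The difference between these age differences was 0.42 (SE 0.15, adjusted p = 0.238) and was not called. For genotype the values were -0.25 (SE 0.076, adjusted p = 0.0717) over both ages and -0.46 (SE 0.12, adjusted p = 0.0580) at 8 weeks. At that age the summed level of 8 hepatocyte markers was 10.93 to 11.11 in Wt and 10.54 to 10.82 in Akt1+/- liver, with a median difference of -0.33 and 0 of 8 called by limma (4 had an unadjusted p under 0.05). Adipocyte markers summed to 4.07 to 4.29 in Wt and 4.78 to 6.79 in Akt1+/-, and lymphocyte markers to 0.47 to 0.81 and 1.40 to 1.64. None of these ranges overlapped, and their part in the difference of Fgb was not tested. The age call was lost with normexp and quantile normalization (-0.10, adjusted p = 0.271) and when all 42 arrays shared 1 estimate of the spread (adjusted p = 0.853). The genotype difference turned to 0.084 with normexp.

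The other genes that read highest in liver varied little. Hp lay between 9.39 and 9.95 and Hpx between 8.51 and 8.95 over the 14 arrays. All Wt arrays read above all Akt1+/- arrays for Hp at 8 weeks, where the lowest Wt array was at 9.65 and the highest Akt1+/- array at 9.63, and for Hpx at 35 weeks, with 8.80 and 8.79. These differences were -0.20 (SE 0.13, adjusted p = 0.399) and -0.17 (SE 0.095, adjusted p = 0.409), and at the other age the genotypes overlapped for each gene. For genotype over both ages, Hp differed by -0.12 (SE 0.084, adjusted p = 0.387) and Hpx by -0.10 (SE 0.073, adjusted p = 0.394), and Hpx was called with scaling to the median. Crp read 0.86, 1.002, 1.21 and 1.05 in Wt and 1.26, 1.37, 1.35 and 1.48 in Akt1+/- at 35 weeks, and 1.11, 1.17 and 1.58 in Wt and 0.99, 1.29 and 1.04 in Akt1+/- at 8 weeks. At 35 weeks all Akt1+/- arrays read above all Wt arrays, with a difference of 0.33 (SE 0.12, adjusted p = 0.165), and at 8 weeks the genotypes overlapped. Orm1 ranged from 4.46 to 5.25 and Orm2 from 4.98 to 5.88, with genotype differences of -0.14 (SE 0.12, adjusted p = 0.500) and -0.14 (SE 0.13, adjusted p = 0.520).

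The serum amyloid A genes and Lcn2 were set apart by single livers and not by group. Saa1 read 4.16, 4.14 and 4.62 in Wt and 3.80, 5.09 and 4.52 in Akt1+/- at 8 weeks, and 5.22, 4.56, 4.02 and 4.61 in Wt and 4.13, 3.99, 6.93 and 4.03 in Akt1+/- at 35 weeks. Saa2 read 4.41, 4.51 and 4.80 in Wt and 4.03, 5.53 and 4.90 in Akt1+/- at 8 weeks, and 5.47, 4.65, 4.04 and 4.68 in Wt and 3.90, 3.75, 7.15 and 4.06 in Akt1+/- at 35 weeks. The third Akt1+/- array of 35 weeks was the highest for both genes, and the others overlapped across all groups. Saa3 on that array read 4.25 beside 1.70, 1.57 and 1.91 on the others of its group, with 2.57, 2.00, 1.82 and 2.09 in Wt. At 8 weeks Saa3 read 1.37, 1.29 and 2.00 in Wt and 1.29, 2.87 and 1.76 in Akt1+/-. Lcn2 read 2.70 on the third array beside -1.23, -0.11 and 0.04, with 1.86, -1.37, -0.57 and 0.90 in Wt at 35 weeks and, at 8 weeks, -0.73, -0.90 and -0.75 in Wt and -2.06, -0.10 and -0.24 in Akt1+/-. The first Wt array of 35 weeks was the next highest for Lcn2.

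Against the mean of the other 3 arrays of its group, the third Akt1+/- array of 35 weeks stood higher by 2.88 for Saa1, 3.24 for Saa2, 2.53 for Saa3 and 3.14 for Lcn2 on the log2 scale. These are ratios of 7.34, 9.46, 5.77 and 8.79. It was the highest of the 4 for 8 of the 10 genes, whereas 21.8% of all genes were highest there, and 4 of the 10 exceeded the mean of the others by more than 1, as did 0.940% of all genes. The array was singled out after the values of these same genes were seen, so the counts describe it and are no test. Signal shared among the serum amyloid A probes may also enter them. Of the 29 other positive acute phase proteins, 18 were highest on that array. Those more than 1 above, chosen after their values were seen, were the metalloreductase Steap4 (1.26), the third orosomucoid Orm3 (1.20), the constitutive serum amyloid Saa4 (1.03) and the protease inhibitor Serpina3n (1.03). The neutrophil markers S100a8 and S100a9 were 0.34 and 0.51 lower there than on the others. The summed level of 11 neutrophil markers ran from 1.91 to 3.36 in this group and was 2.28 on that array.

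The genotype differences of these 4 genes in liver were small beside this spread. They were 0.17 (SE 0.43) for Saa1, 0.12 (SE 0.49) for Saa2, 0.33 (SE 0.40) for Saa3 and 0.07 (SE 0.63) for Lcn2, with adjusted p from 0.633 to 0.957. No gene of the 10 was called for genotype without that array. On the second Akt1+/- array of 8 weeks Saa1, Saa2, Saa3 and Lcn2 were also the highest of the 3, by 0.93, 1.07, 1.35 and 1.05 over the mean of the others. On the first Wt array of 35 weeks Lcn2 was higher than the mean of the other 3 by 2.21 and Saa2 by 1.01. Saa1, Saa2, Saa3 and Lcn2 thus all read highest in their group on the same array of each genotype at 35 weeks. These were the third of Akt1+/- and the first of Wt.

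**Figure D3:**
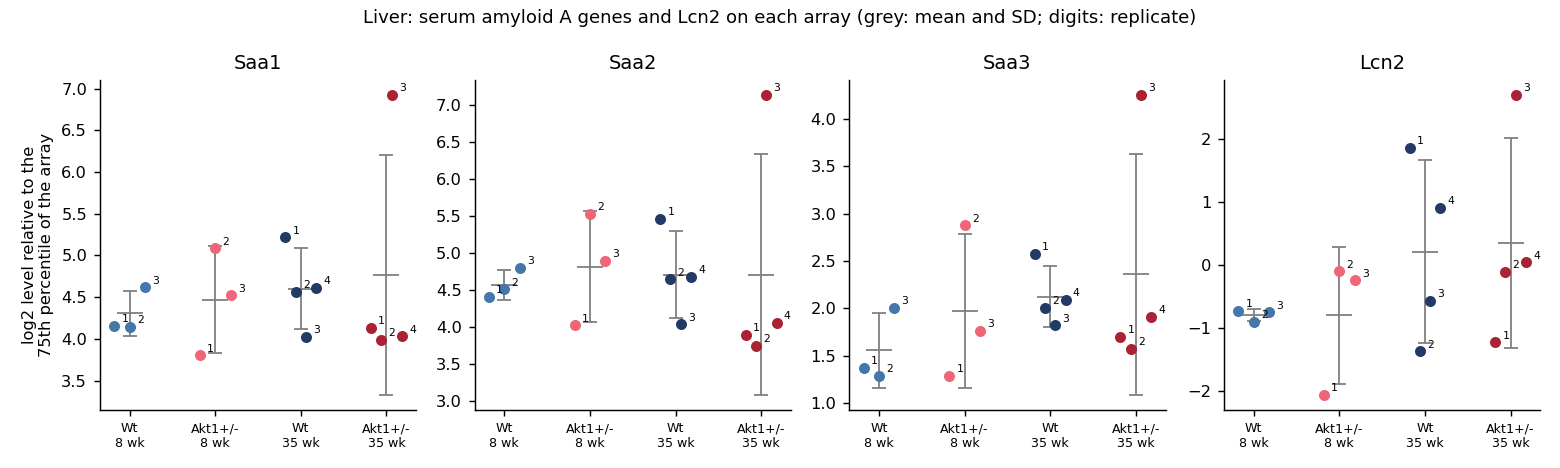
Levels of Saa1, Saa2, Saa3 and Lcn2 in liver (y axis, log2 relative to the 75th percentile of the array) in the 4 groups (x axis). Points are single arrays numbered by replicate, and grey bars are the mean and SD (n = 3 at 8 weeks, n = 4 at 35 weeks). The third Akt1+/- array of 35 weeks lies at 6.93, 7.15, 4.25 and 2.70 and widens the SD of its group.

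Other genes of the response in liver moved in both directions, and their counts for genotype stand beside the 6.28% of all genes called. For genotype, 5 of 29 other positive acute phase proteins were called, 1 higher and 4 lower in Akt1+/- (median -0.03), and the largest were the hepcidin gene Hamp2 (-1.66), the fibrinogen-like hepatokine Fgl1 (0.61) and the protease inhibitor Serpina1e (-0.45). Of 15 negative acute phase proteins, 1 was called, Fetub (-0.34). Of 34 genes of interleukin-6 and interleukin-1 signalling, 1 was called, the NF-kB subunit Nfkb1 (0.27). Among 17 receptors and partners of the 10 proteins, 3 were called, the lipocalin 2 receptor Slc22a17 (0.88), the haptoglobin and haemoglobin receptor Cd163 (0.68) and plasminogen, Plg (-0.28). Cd163 also marks macrophages, and the summed level of 9 macrophage markers was 7.29 to 7.91 in Wt and 7.24 to 8.11 in Akt1+/- liver. The neutrophil genes Retnlg (1.33), S100a9 (1.28) and S100a8 (1.26) were called, of 7 neutrophil markers tested. The summed neutrophil level was 0.07 to 0.31 in Wt and 1.54 to 2.90 in Akt1+/- at 8 weeks, and 1.36 to 2.80 and 1.91 to 3.36 at 35 weeks.

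With age, 8 of the 29 other positive acute phase proteins were called in liver, 5 higher and 3 lower, led by Hamp (1.24), Hamp2 (-0.96) and Cd14 (0.86), a receptor for lipopolysaccharide. Hamp and Hamp2 are close copies and their signals may be shared. Of the signalling genes 9 of 34 were called, 3 higher and 6 lower, led by the interleukin-1 receptor Il1r1 (-0.87), Il11 (0.66) and the glucocorticoid receptor Nr3c1 (-0.60). Of the receptors 8 of 17 were called, 5 higher and 3 lower, led by the integrin Itgam (1.63), Slc22a17 (0.97) and Fpr2 (0.83), a receptor for serum amyloid A. These counts stand beside the 35.1% of all genes called for age. Itgam and Fpr2 are also expressed by leukocytes, and 4 of 7 neutrophil markers (median 1.26) and 5 of 8 lymphocyte markers were called, all higher at 35 weeks, with 3 of 9 macrophage markers called, 2 higher and 1 lower. The summed lymphocyte level ran from 0.47 to 1.64 at 8 weeks and from 1.58 to 2.65 at 35 weeks, and the part of these cells in the age differences was not tested.

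In muscle, 9 of the 10 genes passed the filter on dim probes and Crp did not, with 2 of 14 arrays above background. None of the 9 was called for genotype, where 0% of the 17139 genes tested in muscle were called. By limma, 3170 of those genes and 1 of the 9, Saa1, had an unadjusted p under 0.05. The median difference was 0.16, against -0.0034 over all genes. For age, 2 of the 9 were called, both lower at 35 weeks, where 31.3% of all genes were called. They were Saa3 and Saa2. A change of the genotype difference with age was called by limma in 0 of the 9 and in 0% of all genes (1438 genes and 1 of the 9, Hp, had an unadjusted p under 0.05).

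Saa3 in muscle read -4.10, -4.94 and -3.05 in Wt and -3.27, -3.74 and -2.53 in Akt1+/- at 8 weeks. At 35 weeks it read -7.73, -7.42, -6.28 and -7.25 in Wt and -7.08, -7.29, -6.65 and -7.22 in Akt1+/-. All arrays of 8 weeks lay above all arrays of 35 weeks. At 8 weeks 5 of 6 arrays were well above background and at 35 weeks 0 of 8, so only a bound holds, and Saa3 fell at least 2.93-fold with age (adjusted p = 1.61e-05). The bound was 2.51-fold within Wt (adjusted p = 0.000947) and 3.42-fold within Akt1+/- (adjusted p = 0.000344). The fitted difference, which takes readings at background as levels and is no measured fold, was -3.51 (SE 0.31) and ran from -3.74 to -3.26 when any 1 array was left out. With normexp and quantile normalization it was -0.68 (adjusted p = 0.000184).

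Beside Saa3, the summed level of 9 macrophage markers in muscle was 4.66 to 6.22 at 8 weeks and 5.12 to 5.92 at 35 weeks, which overlapped. Adipocyte markers, 9 genes, were at 7.33 to 8.28 at 8 weeks and 7.78 to 8.55 at 35 weeks. Neutrophil markers ranged from -1.69 to -0.61 in Wt and from 0.07 to 2.996 in Akt1+/- at 8 weeks. At 35 weeks they ranged from -1.54 to -0.71 and from -0.33 to 3.69. The genotypes did not overlap, with 0 of 5 neutrophil markers called for genotype by limma (3 had an unadjusted p under 0.05). The macrophage sum at 8 weeks was 4.66 to 5.66 in Wt and 5.68 to 6.22 in Akt1+/-, and at 35 weeks the genotypes overlapped. The part of these cells in the difference of Saa3 was not tested.

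Saa2 in muscle read -2.52, -2.90 and -2.93 in Wt and -2.65, -2.74 and -2.18 in Akt1+/- at 8 weeks, and -3.16, -3.17, -2.84 and -3.12 in Wt and -3.30, -3.32, -3.00 and -3.19 in Akt1+/- at 35 weeks. The genotypes overlapped, and the third Wt array of 35 weeks lay among those of 8 weeks. Saa2 fell by 0.48 (SE 0.11, adjusted p = 0.00541) with age. Within Akt1+/- the difference was -0.68 (adjusted p = 0.0121) and within Wt -0.29 (adjusted p = 0.209). When all 42 arrays shared 1 estimate of the spread, the adjusted p for age was 0.483.

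The brighter Saa1 probe read between -1.34 and -0.95 on all 14 muscle arrays and differed with age by 0.02 (SE 0.068, adjusted p = 0.866). The dimmer probe fell by 0.74 (SE 0.14, adjusted p = 0.00218). Its 8-week arrays lay between -3.77 and -3.19 and its 35-week arrays between -4.62 and -3.76, close to the pattern of Saa2. Whether the Saa1 transcript changed in muscle therefore depended on the probe.

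Fgb and Hpx in muscle varied over the widest range, and with them albumin. Fgb read -0.53, -1.37 and -3.43 in Wt and -2.91, -4.50 and 2.48 in Akt1+/- at 8 weeks, and -5.46, -4.78, -0.86 and -5.96 in Wt and -4.86, -4.67, -2.81 and -5.65 in Akt1+/- at 35 weeks. Hpx read -2.35, -3.36 and -4.69 in Wt and -4.66, -4.61 and 0.86 in Akt1+/- at 8 weeks, and -5.66, -5.47, -2.35 and -6.07 in Wt and -4.97, -4.37, -4.42 and -5.54 in Akt1+/- at 35 weeks. Alb read 1.51, 0.81 and -1.62, then -0.99, -2.21 and 5.18, then -3.10, -2.41, 1.76 and -3.38, and -3.12, -2.63, -1.59 and -5.49 in the same order. The third Akt1+/- array of 8 weeks was the highest and the third Wt array of 35 weeks was high in its group for all 3 genes.

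On that Akt1+/- array Fgb was 6.18 above the mean of the other 2, Hpx 5.49, Orm2 3.77, Orm1 1.77, Lcn2 1.35 and Hp 1.26. It was the highest of the 3 for 7 of the 9 genes, against 28.8% of all genes, and 6 of the 9 exceeded the others by more than 1, against 2.32% of all genes. As this array was singled out after these values were seen, the counts describe it and are no test. Orm1 was not highest there, and the other 2 arrays were not both above background for Orm1 and neither was for Orm2. The hepatocyte genes Alb, Cps1, Apoa2, Apoc3 and Hpd, singled out after their values were seen, were 6.77, 6.36, 5.69, 5.16 and 5.12 higher there. The summed level of 8 hepatocyte markers was 5.35 on that array and at most 2.12 on the other muscle arrays, and that of the 10 skeletal muscle markers was 12.51, against 12.55 to 12.95 on the others. That array shared its slide with a liver array and with the second Akt1+/- muscle array, on which the hepatocyte sum was -0.56. Saa3, Saa2 and Saa1 stood 0.97, 0.52 and 0.04 above the mean of the other 2, and the part of hepatocyte RNA in these values was not tested.

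With age, Fgb in muscle differed by -2.67 (SE 1.11, adjusted p = 0.0848). On the 10 muscle arrays with albumin below the 75th percentile it differed by -1.38 (adjusted p = 0.199). On the same 10 arrays the fitted difference of Saa3, again against readings at background, was -3.99 (adjusted p = 0.000126) and that of Saa2 was -0.36 (adjusted p = 0.0477).

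**Figure D4:**
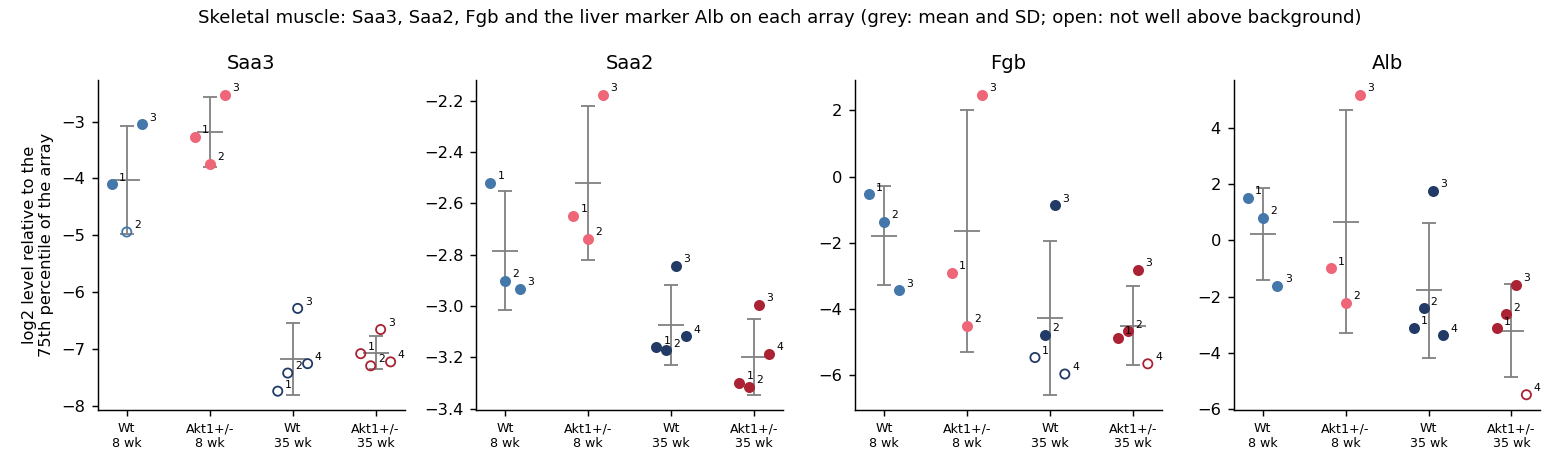
Levels of Saa3, Saa2, Fgb and Alb in skeletal muscle (y axis, log2 relative to the 75th percentile of the array, scaled per panel) in the 4 groups (x axis). Points are single arrays numbered by replicate, open points were not well above background, and grey bars are the mean and SD (n = 3 or 4). Saa3 separates the ages, while Fgb follows the arrays high in Alb, above all the third Akt1+/- array of 8 weeks at 2.48 for Fgb and 5.18 for Alb.

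Hp in muscle read 1.77, 0.61 and 0.73 in Wt and 1.96, 1.17 and 2.82 in Akt1+/- at 8 weeks, and 1.81, 2.09, 2.03 and 2.19 in Wt and 1.59, 1.39, 2.22 and 1.16 in Akt1+/- at 35 weeks. The groups overlapped at each age. The genotype difference was 0.95 (SE 0.40, adjusted p = 0.283) at 8 weeks and the change in it with age was -1.39 (SE 0.53, adjusted p = 0.533). Lcn2 ran from -4.22 to -2.06 with no group set apart. Orm1 was above background on 6 arrays and Orm2 on 11.

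Of the related genes in muscle, none of 22 other positive acute phase proteins, 31 signalling genes or 16 receptors and partners was called for genotype by limma (8, 6 and 9 had an unadjusted p under 0.05). With age 5 of the 22 were called, 4 higher and 1 lower, led by the complement gene C4b (0.97), the hepcidin gene Hamp2 (0.80) and Plscr1 (0.61). Of the signalling genes 9 of 31 were called, 3 higher and 6 lower, led by Nfkbiz (-0.60), Hnf4a (0.45) and Nfkb1 (-0.41). Nfkbiz encodes an NF-kB cofactor induced by interleukin-1. The integrin Itgb3, which binds fibrinogen, was the only receptor called (-0.49), and of 8 negative acute phase proteins Igfbp2 was called (-1.14). The counts for age stand beside the 31.3% of all genes called for age in muscle.

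In visceral fat, 9 of the 10 genes passed the filter and Crp, above background on 1 array, did not. None of the 9 was called for genotype, where 0.822% of the 18366 genes tested in fat were called, or for age, where 19.3% were called. The unadjusted p was under 0.05 for Hp in both. Median differences were -0.41 for genotype and -0.0088 for age, against -0.0085 and 0.011 over all genes. For the change of the genotype difference with age, 0 of the 9 were called by limma, where 1.64% of all genes were called, with an unadjusted p under 0.05 for Orm1, Orm2 and Fgb.

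Hp in fat read 8.16, 8.30 and 8.48 in Wt and 7.51, 7.11 and 8.43 in Akt1+/- at 8 weeks, and 7.75, 8.12, 7.28 and 7.69 in Wt and 6.66, 7.37, 6.82 and 7.50 in Akt1+/- at 35 weeks. Wt arrays of 8 weeks were high and Akt1+/- arrays of 35 weeks low, with overlap between genotypes at both ages. The genotype difference was -0.63 (SE 0.21, adjusted p = 0.156) and the age difference -0.60 (SE 0.21, adjusted p = 0.0682). The age difference passed the threshold with normexp (-0.72, adjusted p = 0.0154), with slide as a random block (adjusted p = 0.0480), in the fit over 42 arrays (adjusted p = 0.0443) and without the second Akt1+/- array of 8 weeks (adjusted p = 0.0339).

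The orosomucoids moved in opposite directions between genotypes at the 2 ages, without passing the test. Orm2 read 2.38, 3.90 and 4.12 in Wt and 1.65, 1.10 and 2.67 in Akt1+/- at 8 weeks, and 1.58, 2.79, 1.88 and 3.12 in Wt and 2.11, 3.004, 3.74 and 3.82 in Akt1+/- at 35 weeks. The genotypes overlapped at both ages. At 35 weeks they also differed in slide and scanning session. Akt1+/- minus Wt was -1.66 (SE 0.60, adjusted p = 0.125) at 8 weeks and 0.83 (SE 0.52) at 35 weeks, and the difference of these was 2.49 (SE 0.79, adjusted p = 0.120). For Orm1 the values were -1.52 (SE 0.61, adjusted p = 0.159), 0.70 (SE 0.53) and 2.23 (SE 0.81, adjusted p = 0.158). Orm1 read 1.77, 3.31 and 3.67 in Wt and 1.22, 0.66 and 2.32 in Akt1+/- at 8 weeks, and 1.05, 2.22, 1.39 and 2.53 in Wt and 1.47, 2.31, 3.09 and 3.14 in Akt1+/- at 35 weeks. Within each group the arrays stood in the same order for Orm1 and Orm2. The 2 genes lie close together on chromosome 4 with 1 probe each, and whether the probes share signal was not checked. Within the slide that held 3 Akt1+/- arrays and 1 Wt array of 8 weeks, Orm1 differed by -2.28, Orm2 by -2.31, Hp by -0.79 and Alb by -1.68. At 8 weeks the summed level of 8 mesothelium markers in fat was 4.71 to 5.32 in Wt and 5.50 to 6.08 in Akt1+/-, with 3 of 8 called, all higher in Akt1+/-. The neutrophil sum was 0.04 to 0.25 in Wt and 1.39 to 3.31 in Akt1+/-, with 0 of 6 markers called by limma (4 had an unadjusted p under 0.05). The part of these cells in the differences of the orosomucoids was not tested.

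Fgb in fat was well above background on 8 of 14 arrays and reached 0.08 and -1.01 on the first 2 Wt arrays of 8 weeks, which shared a slide. The third Wt array read -6.83 and the 3 Akt1+/- arrays -6.38, -7.87 and -6.20, all 4 not well above background. At 35 weeks Fgb read -8.19, -5.06, -7.51 and -2.96 in Wt and -4.74, -3.05, -5.77 and -4.90 in Akt1+/-. Alb read 2.998 and 2.00 on those first 2 arrays and between -1.76 and 1.31 on the others. The change of the genotype difference of Fgb with age was not called (adjusted p = 0.186, and 0.797 without the 2 arrays of that slide), and no size is given for it because no Akt1+/- array of 8 weeks was above background. Hpx ran from -4.44 to -2.18 and was highest on the first of them.

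The serum amyloid A genes in fat were again marked by single arrays. Saa3 read -1.76, -0.75 and -0.69 in Wt and -2.31, -1.04 and 0.91 in Akt1+/- at 8 weeks, and -2.50, -2.16, -1.42 and 0.23 in Wt and 0.24, -1.21, -0.06 and -0.47 in Akt1+/- at 35 weeks. The groups overlapped, with a genotype difference of 0.67 (SE 0.53, adjusted p = 0.501). Saa2 read -5.30, -4.57 and -4.82 in Wt and -6.23, -6.09 and -1.78 in Akt1+/- at 8 weeks, and -6.02, -6.01, -5.66 and -5.93 in Wt and -5.49, -5.31, -5.06 and -4.86 in Akt1+/- at 35 weeks. At 35 weeks all 4 Akt1+/- arrays and none of the Wt arrays were well above background for Saa2, but the difference was not called (adjusted p = 0.785). Saa1 ran from -1.25 to 0.45. The third Akt1+/- array of 8 weeks held the highest Saa1, Saa2 and Saa3 of all fat arrays.

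On that array Saa2 stood 4.37 above the mean of the other 2 of its group, Saa3 2.59, Orm1 1.38, Orm2 1.29, Saa1 1.29, Hp 1.11 and Lcn2 0.94. The other 2 were not above background for Saa2. It was the highest of the 3 for 8 of the 9 genes, against 37.5% of all genes, and 6 of the 9 exceeded the others by more than 1, against 2.77% of all genes. As this array was singled out after these values were seen, the counts describe it and are no test. Cytokine genes, singled out after their values were seen, were higher there too, Il1b by 4.80, Il6 by 3.99, Tnf by 3.46 and the interleukin-1 antagonist Il1rn by 3.70, with the STAT3 target Socs3 by 2.06. Of the neutrophil genes, Mmp8 was 4.33, S100a9 2.96 and S100a8 2.72 higher. The summed neutrophil level was 3.31 on that array and 0.04 to 1.74 on the others of 8 weeks, while the macrophage sum was 7.76 to 8.24 over all fat arrays. The part of neutrophils in the levels of the acute phase genes was not tested.

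The fourth Wt array of 35 weeks was high in a partly different set, with Saa3 and Orm2 high on both arrays. It was the highest of 4 for 7 of the 9 genes, against 26.9% of all genes, and 5 of the 9 exceeded the others by more than 1, against 1.98% of all genes. This array too was singled out after these values were seen, and the counts are no test. It stood above the mean of the others by 3.96 for Fgb, which was above background on 1 of those 3, 2.26 for Saa3, 1.79 for Lcn2, 1.18 for Hpx and 1.04 for Orm2. Alb was 1.18 higher there, and Il6 and Il1b were not well above background on it. Saa2 and Hp, high on the third Akt1+/- array of 8 weeks, were not high here.

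**Figure D5:**
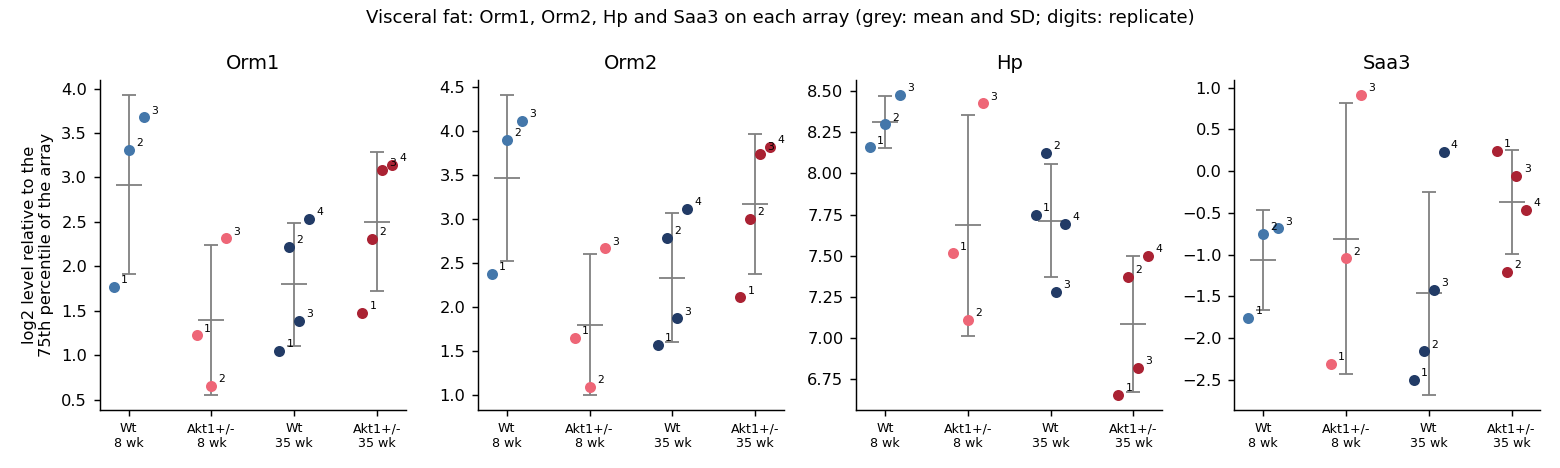
Levels of Orm1, Orm2, Hp and Saa3 in visceral fat (y axis, log2 relative to the 75th percentile of the array, scaled per panel) in the 4 groups (x axis). Points are single arrays numbered by replicate, and grey bars are the mean and SD (n = 3 at 8 weeks, n = 4 at 35 weeks). The mean of Orm2 was lower in Akt1+/- than in Wt at 8 weeks (1.81 against 3.47) and higher at 35 weeks (3.17 against 2.34), with overlapping arrays.

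For the related genes in fat, none of 25 other positive acute phase proteins, 31 signalling genes or 18 receptors and partners was called for genotype by limma (6, 1 and 8 had an unadjusted p under 0.05). With age 3 of the 25 were called, the metallothionein Mt1 (1.09), Tifa (-0.40) and the complement component C3 (-0.19). Of the signalling genes 7 of 31 were called, 1 higher and 6 lower, led by the interleukin-1 receptor subunit Il1rap (-0.78), Relb (0.57) and Nr3c1 (-0.51). Of 8 negative acute phase proteins Rbp4, the carrier of retinol, was called (0.58). Over all genes, 0.822% were called for genotype and 19.3% for age in fat.

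The differences were then compared between tissues in 1 fit over the 42 arrays. The genotype difference was not called as differing between tissues in any of the 10 genes, where 4.20% of all genes were called (limma F test). The unadjusted p was under 0.05 for Hp (F = 4.29, adjusted p = 0.147). For age 1 of the 10 was called, Saa3 (F = 23.4, adjusted p = 2.77e-05), where 30.6% of all genes were called. With age Saa3 fell at least 2.93-fold in muscle, by the bound, and differed by 0.48 in liver and 0.02 in fat on the log2 scale. The test itself used the readings at background of the 35-week muscle arrays. With normexp and quantile normalization this test of Saa3 gave F = 3.37 (adjusted p = 0.114). Hp was next (F = 4.46, adjusted p = 0.0594), with age differences of 0.30 in muscle, -0.09 in liver and -0.60 in fat.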

How the data were processed

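Total RNA of liver, quadriceps muscle and visceral fat was hybridised by the authors to one-colour Agilent whole mouse genome arrays, and the deposited scanner files (Agilent Feature Extraction, version 9.1 per the labels and 9.5.3.1 per the file headers) hold background-subtracted processed intensity per spot. The authors also deposited a table of log2 values of the same arrays, which served as an alternative. None of its columns was unmapped (0). The 10 genes and all gene lists were chosen with earlier results of these data known.

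Here, spots flagged as outliers were left out, spots of a probe were averaged, and log2 of the processed intensity minus the 75th percentile of the array was used. A probe was kept when well above background on 3 or more arrays in 1 group, and the brightest probe stood for a gene. One mean per group was fitted with limma 3.58.1 (R 4.3.3) over the 14 arrays of a tissue, and over 42 arrays in 12 groups for comparisons between tissues, with Benjamini-Hochberg adjustment over all genes and a threshold of 0.05. A bound sets the brighter mean against a raised mean of the dimmer side. In groups with no array well above background, each lower reading there is raised to its array's lowest signal well above background. Other groups keep their own readings, and a bound that holds dim readings of such groups is no strict lower limit. Precision is limited by the number of arrays. The named genes were the 10 genes and, per list and tissue, at most the 3 largest called differences for genotype and for age. The fits were tested on simulated data. Figures were drawn with matplotlib 3.10.9. Alternatives were median scaling, normexp (offset 50) with quantile normalization, other filters on dim probes, averaging the probes of each gene, the authors' log2 table, the slide or the replicate number as a block, no interaction term, and leaving out each array. Same-numbered Wt and Akt1+/- arrays of a tissue deviated from their group means together at 35 weeks (correlations 0.11 to 0.52, above 0.1 in 12 of 12 pairs), where the number is also the position on the slide, and not at 8 weeks (0 of 9 pairs), so the numbers pair the 35-week arrays. Between tissues, correlations of same-numbered arrays of 1 genotype and age were above 0.1 in 22 of 24 pairs at 35 weeks (0.015 to 0.38). At 8 weeks they were above 0.1 in 9 of 18 pairs (-0.0097 to 0.27). The main fits over 42 arrays treated the arrays as independent. What a number marks is not given in the labels. Alternatives chosen after seeing the data used the number as a block at 35 weeks only and left out arrays of slide 4 in muscle, of slide 5 in fat, or muscle arrays high in Alb.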

Additional observations from a re-analysis of the deposited data

Results flagged for a closer look

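Within a group of 4 arrays, the gap from the highest or lowest array to its neighbour was divided by the range of the group. Chance passes Dixon's 95% critical value for this ratio in about 1 in 20 groups, and 9 of the 60 sets of 4 values of these genes passed it (6 of the 44 measured above background on all 4 arrays). The sets are not independent, because the genes share arrays and the serum amyloid A probes may share signal, so the count is no test. The third Akt1+/- liver array of 35 weeks stood above the others for Saa1 (0.951), Saa2 (0.909) and Saa3 (0.876). In the same group the fourth array was lowest for Hpx (0.8293), at 8.51 beside 8.74 to 8.79. In Wt muscle of 35 weeks the third array was highest for Saa2 (0.837) and for Hpx (0.838) and lowest for Orm2 (0.898), with Hpx not well above background on the other 3 and Orm2 not on the third. The second array of that group was highest for Crp (0.943), which was not well above background on any of the 4. In Wt fat of 35 weeks the fourth array was highest for Saa1 (0.989), at -0.74 beside -1.25 to -1.24.

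The age difference of Saa3 differed between the tissues (limma F test, adjusted p = 2.77e-05), with a fall of at least 2.93-fold in muscle, by the bound, and differences of 0.48 in liver and 0.02 in fat on the log2 scale. In muscle, Saa3 was well above background on 5 of 6 arrays of 8 weeks and on 0 of 8 of 35 weeks.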

How the results depend on the processing

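Of 154 values of the comparisons under other settings, leaving out single arrays aside, 142 kept their direction and side of the threshold, or a count within 1.5 times, and of 413 values of single genes 395 did. The counts of called genes among the 10 changed as follows, and the causes were not tested unless stated. With median scaling, which shifted the median of all genes by -0.13 and -0.20 for genotype and age in liver, by 0.18 for liver against fat and by -0.18 for fat against muscle, 2 genes were called for genotype in liver (Fgb, Hpx) and 3 for age in liver (Fgb, Hp, Hpx). One fit over all 42 arrays called 0 for age in liver and 1 for age in fat (Hp). Normexp called 1 for age in fat (Hp) and 5 for fat against muscle, and slide as a random block called 1 for age in fat (Hp). Requiring signal on every array left fewer genes to test, 4 for age in muscle, of which 1 was called, and 2 between tissues, with 2 called for liver against muscle, 2 for liver against fat and 1 for fat against muscle.

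Leaving out each array gave 0 to 1 called genes for genotype in liver (1 without the first Wt array of 35 weeks, Fgb, adjusted p = 0.0471), 1 to 1 for age in liver, 0 to 0 for genotype in muscle and in fat, 2 to 4 for age in muscle (4 without the second Akt1+/- array of 8 weeks, adding Fgb and Orm1), 0 to 1 for age in fat, 10 to 10 for liver against either tissue, 8 to 9 for fat against muscle, 0 to 0 for genotype by tissue and 1 to 3 for age by tissue (3 without the second Akt1+/- muscle array of 8 weeks). For the change of the genotype difference with age it gave 0 to 0 in liver and muscle and 0 to 1 in fat (Fgb without the third Wt array of 8 weeks, Saa2 without the third Akt1+/- array of 8 weeks).

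Directions turned for Fgb by genotype in liver with normexp (0.084), for Saa1 in fat against muscle with the mean of its probes (-0.89) and for Hpx in fat against muscle with normexp (-0.14) and between -0.035 and 0.65 when single arrays were left out. The latter turned negative without the first or second Akt1+/- muscle array of 8 weeks.

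The replicate number as a block in both ages gave 2 called genes for age by tissue (Hp, Saa3), 0 for genotype in liver, muscle and fat, 1 for age in liver, 2 for age in muscle and 0 for age in fat. As a block among the 35-week arrays alone, chosen after seeing the data, it changed none of these calls within a tissue, and for genotype at 35 weeks 0 of the 10 genes in liver, 0 of 9 in muscle and 0 of 9 in fat were called by limma with it and without it (lowest adjusted p with it 0.187, 0.587 and 0.353). At 8 weeks, where the numbers did not pair the Wt and Akt1+/- arrays of a tissue, 3 of 18 arrays correlated best with their own number in the other genotype.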

Other observations

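In liver, 1 of the 34 genes of interleukin-6 and interleukin-1 signalling was called for a change of the genotype difference with age, the cytokine Il11 (2.19, SE 0.36, limma adjusted p = 0.0253). In fat, 1 of the 18 receptors and partners was called in the same comparison, Tlr2 (-1.34, SE 0.29, adjusted p = 0.0449), which recognises bacterial lipopeptides. Both genes are named because their count was small, after their values were seen. Over all genes, 0.558% in liver and 1.64% in fat were called for this change. For genotype by tissue, 2 of 29 other positive acute phase proteins and 2 of 20 receptors and partners were called, where 4.20% of all genes were called, and for age by tissue 8 of 29 and 5 of 20, where 30.6% were called. None of these lists was tested as a set.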
